A study of Mus musculus with 40 samples.

Results

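The age difference under antibiotics without opioid is described here from 10 of the 40 libraries of the series, 5 of adult and 5 of adolescent mice, chosen by their labels alone. All were made from polyadenylated RNA of the brain of female C57BL/6J wild type mice, a standard inbred strain, and the title of the series names the medial prefrontal cortex. The adults began the experiment on postnatal day 55 and the adolescents on postnatal day 25. Both groups were given oral antibiotics (Abx) and injected under the skin with saline for 5 days. The other 30 libraries come from the same ages on plain water with saline, and from both drinks with morphine at 15 mg/kg. The sources used here name neither the antibiotics nor the age at collection. The labels do not state whether each library is a mouse of its own, so every p-value reflects the spread among libraries alone, which may be technical. In the main fit that spread was estimated over all 40 libraries.

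The medial prefrontal cortex, which serves planning, working memory and the control of reward seeking, is among the last cortical regions to mature. During adolescence its neurons stop extending processes, prune synapses and lower many genes of the growing cytoskeleton, while oligodendrocyte precursors differentiate and wrap axons in myelin. Mature neurons draw most of their energy from the respiratory chain, whose subunits are encoded partly in the nucleus and partly in the mitochondrial genome. In bulk tissue a lower level can come from fewer cells of a type or from less RNA per cell, and these cannot be told apart.

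Total counts per library ranged from 9197029 to 10219839 in adults and from 8814596 to 10139880 in adolescents. All 12 excitatory neuron markers and all 20 cortical layer markers passed the filter on low counts, and 3 of 12 choroid plexus and ependyma markers did. Striatal markers, of which 14 of 16 passed, summed to 539 to 625 CPM (counts scaled to a common library size) in adults and 545 to 592 CPM in adolescents. Astrocyte, microglia, endothelial and cell division lists had 0 called members by edgeR among 18, 20, 18 and 13 tested. Summed astrocyte markers lay at 5308 to 7162 CPM in adults and 5498 to 6252 CPM in adolescents, and microglial markers at 526 to 620 CPM in adults and 541 to 607 CPM in adolescents. Transcripts encoded in the mitochondrial genome made up 4.06 ± 0.46% of counts in adults and 3.37 ± 0.23% in adolescents (SD, n = 5 each).

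Adults and adolescents on antibiotics and saline differed in 1068 of 17880 genes tested, or 5.97% (edgeR quasi-likelihood test, Benjamini-Hochberg adjusted p under 0.05, called below). Of these, 499 (2.79%) were higher and 569 (3.18%) lower in adults. The genes that fell in adults included 28 of the nuclear-encoded respiratory chain, 12 of the ribosome, 9 of the growing neurite and 5 of the vacuolar proton pump, and those that rose included 4 of the circadian clock. Most differences were small: the median size among called genes was 0.33 on the log2 scale, 226 exceeded 0.5 and 48 exceeded 1. The libraries of both ages did not overlap at all in 1121 genes, or 6.27%, with adults above adolescents in 495 (2.77%) and below them in 626 (3.5%). The number of called genes depended on single libraries, being 560 without adult replicate 5, 605 without adolescent replicate 1, 667 without adolescent replicate 2 and 695 without adult replicate 3.

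The direction of the difference followed transcript length, where length is that of the longest coding transcript or, in genes without one, the longest transcript. The median length was 6291 bases among genes higher in adults, 1465 among genes lower in adults and 2899.5 among all tested genes. In the shortest of 5 equal length classes (36 to 1491 bases) 41 genes were called higher and 287 lower, and in the longest (4874 to 123179 bases) 303 were higher and 13 lower. The median log2 fold change was -0.08 in the shortest class and 0.10 in the longest, while in mice on water and saline it was -0.02 and 0.02. The same ages under morphine gave -0.04 in the shortest and 0.07 in the longest class on water, and -0.05 and 0.08 on antibiotics. Called genes also differed in GC content, with a median of 47.3% among those higher and 54.7% among those lower in adults, against 50% over all genes.

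Each library was also given an index, the median log2 deviation from the average over all libraries in the longest length class minus that in the shortest. Adults had indices of 0.01, 0.03, 0.21, 0.02 and 0.14, and adolescents had -0.17, -0.15, -0.10, -0.05 and -0.09, for replicates 1 to 5. No adult library overlapped the adolescent ones, and the means were 0.08 ± 0.09 and -0.11 ± 0.05 (SD, n = 5 each). Adult replicates 3 and 5, with the highest indices, and adolescent replicates 1 and 2, with the lowest, are the libraries whose omission lowered the number of called genes most. Length is a property of the genes that moves with this age difference, and whether it is the cause in single genes was not tested. An offset that removes each library's smooth dependence on length and GC content, added after the data had been seen, left 548 called genes (3.06%), 205 higher (1.15%) and 343 lower (1.92%), of which 448 were among the 1068. The offset also removes any true age difference that runs with length, so the single gene values given with it below do not separate length from age.

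**Figure D1:**
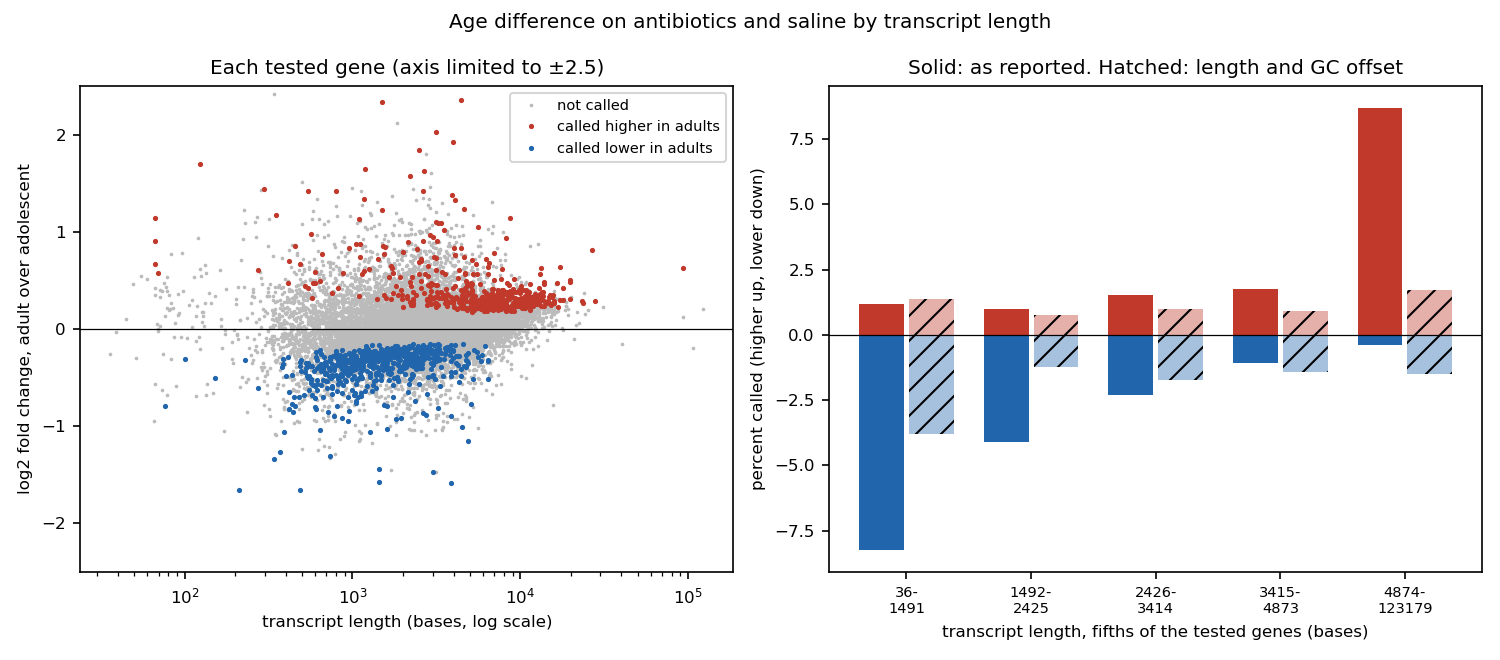
Left, log2 fold change of each tested gene (adult over adolescent, antibiotics and saline) against transcript length in bases on a log axis, with called genes in colour and the axis limited to ±2.5. Right, percent of genes called higher (up) and lower (down) in adults in each of 5 length classes, as reported (solid) and with the length and GC offset (hatched). Genes called lower gather in the shortest class, with 287 genes, and genes called higher in the longest, with 303.

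Among the 12 genes lower and 12 higher in adults with the smallest p, all 24 kept their call in each of the 10 fits that left out 1 library and in every one of 9 alternative fits, the offset included. The 12 lower genes had a median length of 899 bases and the 12 higher genes of 7237 bases. The gene with the smallest p was Marcksl1, which encodes an actin- and calmodulin-binding protein of growing neurites. Its level was 73.5, 71.9, 91.3, 88.6 and 70.8 CPM in the adult libraries and 160.0, 161, 158, 186 and 147 CPM in the adolescent libraries. Every adult library lay far below every adolescent library, and Marcksl1 was 2.05-fold lower in adults (log2 fold change -1.04 ± 0.08, SE; edgeR adjusted p = 1.02e-14). Ass1, argininosuccinate synthase of the urea cycle and of arginine recycling, led the higher genes. It had 29.4, 25.7, 30.6, 30.9 and 27.05 CPM in adults and 19.7, 16.3, 19.7, 21.1 and 14.8 CPM in adolescents. The groups did not overlap, and Ass1 was 1.56-fold higher in adults (log2 fold change 0.64 ± 0.10, SE; edgeR adjusted p = 2.75e-05).

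The promoters of these leading genes are shown because their p was the smallest in each direction. The letters are 250 bases before to 50 bases after the start of the gene in RefSeq, GRCm38.p6, written 5′ to 3′ on the strand of the gene, and lie at chr4:129513331-129513630 (plus strand) for Marcksl1 and chr2:31470020-31470319 (plus strand) for Ass1. Neither holds the motifs searched for in the respiratory chain genes.
Marcksl1: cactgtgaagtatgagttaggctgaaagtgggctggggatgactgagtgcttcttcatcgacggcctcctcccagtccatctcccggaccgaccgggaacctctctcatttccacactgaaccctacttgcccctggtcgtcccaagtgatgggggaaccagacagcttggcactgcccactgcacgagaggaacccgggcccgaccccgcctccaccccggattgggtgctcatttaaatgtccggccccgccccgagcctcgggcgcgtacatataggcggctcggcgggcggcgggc
Ass1: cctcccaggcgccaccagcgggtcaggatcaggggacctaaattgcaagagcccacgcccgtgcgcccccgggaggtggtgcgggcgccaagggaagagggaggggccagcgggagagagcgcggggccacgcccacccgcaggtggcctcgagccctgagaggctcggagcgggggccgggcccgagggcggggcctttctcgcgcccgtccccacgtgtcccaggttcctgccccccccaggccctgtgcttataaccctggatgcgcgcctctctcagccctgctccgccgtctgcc

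Beside Marcksl1 and Ass1, 7 genes were called in the same direction in all 4 age comparisons of the series, which share no library. This set was defined after its values had been seen. Adap1, a neuronal protein that binds phosphoinositides and inactivates Arf GTPases, had 205, 224, 209.8, 219 and 203 CPM in adults and 267, 266, 262, 264 and 287 CPM in adolescents, and was 1.27-fold lower in adults (edgeR adjusted p = 2.58e-05). Gpr17, a receptor of oligodendrocyte precursors about to differentiate, had 46.7, 39.3, 48.7, 53.5 and 47.6 CPM in adults and 61.5, 74.3, 66.7, 68.96 and 66.4 CPM in adolescents. Both genes were lower in every adult library than in any adolescent library, and Gpr17 was 1.43-fold lower (edgeR adjusted p = 0.00426). Gpr17 overlaps Lims2 on the other strand, and the strand setting of the counts is not given, so its reads are uncertain.

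Selenow, a small selenoprotein that takes part in redox reactions, averaged 312 ± 18.7 CPM in adults and 419.7 ± 14.8 CPM in adolescents (SD, n = 5 each), and Clec2l, a C-type lectin family membrane protein, averaged 36.3 ± 3.65 and 48.3 ± 1.27 CPM. Neither overlapped between ages, and they fell by 0.43 and 0.41 on the log2 scale (edgeR adjusted p = 0.000921 and 0.000587). Itpr1, the inositol trisphosphate receptor that releases calcium from the endoplasmic reticulum, had 925, 996, 1101, 912 and 1129.7 CPM in adults and 708, 741, 808, 811 and 764 CPM in adolescents. It was 1.32-fold higher in adults with no overlap (edgeR adjusted p = 3.86e-05). Gm44101, a transcript annotated on the other strand of Itpr1, was also called higher and cannot be told apart from it without strand. Hsf4, a heat shock transcription factor best known from the lens, had 19.8, 19.1, 14.6, 22.2 and 17.96 CPM in adults and 15.1, 12.1, 10.2, 10.9 and 14.6 CPM in adolescents. Only adult replicate 3 fell within the adolescent range, and Hsf4 was 1.49-fold higher (edgeR adjusted p = 0.000941).

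**Figure D2:**
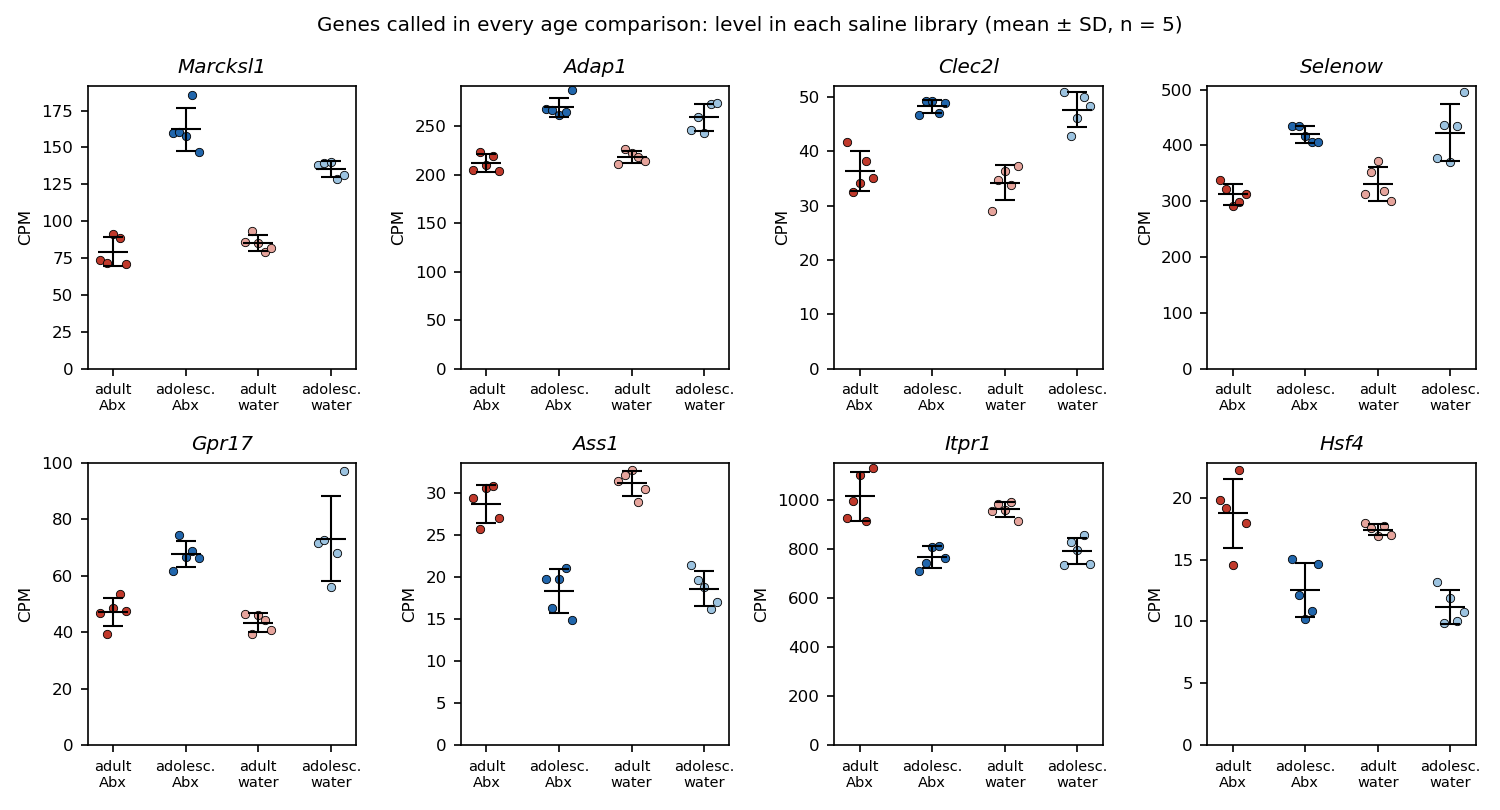
Level in CPM of 8 genes called in all 4 age comparisons, in each library of adult and adolescent mice on antibiotics (Abx) and on water, all injected with saline. Points are libraries and bars are mean ± SD (n = 5); Marcksl1 averaged 79.2 CPM in adults and 162 CPM in adolescents on antibiotics.

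No called gene of the growing neurite and immature neuron was higher in adults. Of 26 tested, 9 were called lower in adults and 0 higher, against 3.18% called lower over all tested genes. A negative log2 fold change was found in 22, and the median was -0.17, against 0.01 over all genes. Over the list, 8 were called lower with the length and GC offset, among them Marcks and Dclk1, which were not called without it. Between 6 and 11 were called lower when single libraries were left out. The called members beside Marcksl1 were Tubb3, Mex3b, Tmsb10, Basp1, Nrep, Sox4, Cd24a and Fscn1. Basp1 and Fscn1 lost their call with the offset. Tubb3, the neuron-specific beta tubulin, had 275, 289, 287, 288 and 262 CPM in adults and 338, 328, 331, 374 and 338 CPM in adolescents. It was lower in every adult library, by 1.22-fold (edgeR adjusted p = 0.00251), but was not called with the offset (adjusted p = 0.115).

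Nrep, a regulator of neuronal process growth, had 49.8, 51.8, 31.1, 41.8 and 42.4 CPM in adults and 61.9, 65.01, 61.03, 59.8 and 78.7 CPM in adolescents, again without overlap, and was 1.501-fold lower (edgeR adjusted p = 0.0107). With surrogate variables the log2 fold change of Nrep was -0.39 in place of -0.59 and was not called (adjusted p = 0.0788). Tmsb10, which binds actin monomers, had 84.4, 95.3, 67.9, 103 and 77.6 CPM in adults and 124, 113, 104, 97.5 and 115 CPM in adolescents. Adult replicate 4 overlapped the adolescent range, and Tmsb10 was 1.29-fold lower (edgeR adjusted p = 0.00577). Tmsb10 was not called in a fit of only the groups compared or with surrogate variables, where its log2 fold change was -0.23 in place of -0.37 (adjusted p = 0.117). Cd24a, a surface protein of immature neurons, was 1.91-fold lower at only 3.31 ± 1.18 CPM in adults and 6.36 ± 1.77 CPM in adolescents (SD, n = 5 each; edgeR adjusted p = 0.0166), and lost its call without adult replicate 3 or 5 or adolescent replicate 4. The transcription factor Sox4 lost it without adult replicate 1 or 5. Doublecortin, Dcx, the classical marker of migrating young neurons, was not called and averaged 41.5 ± 5.49 CPM in adults and 39.7 ± 5.25 CPM in adolescents (log2 fold change 0.07 ± 0.09, SE; edgeR adjusted p = 0.76).

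The list with the most called genes was the nuclear-encoded respiratory chain, the set of complexes in the inner mitochondrial membrane that pass electrons to oxygen and make ATP. Of 52 genes, 28 were called lower in adults and 0 higher, and 50 had negative log2 fold changes with a median of -0.27. Their summed level was 5186 to 5689 CPM in adults and 6215 to 6403 CPM in adolescents, with no overlap. By complex, 13 of 26 genes of complex I (NADH dehydrogenase) fell, 0 of 4 of complex II (succinate dehydrogenase), 4 of 7 of complex III, 9 of 10 of complex IV (cytochrome c oxidase) and 2 of 5 of complex V (ATP synthase). Complex IV had the lowest median log2 fold change, -0.35, and complex II the highest, -0.11.

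Cox5b, a subunit of complex IV, had 83.7, 90.8, 65.00, 80.9 and 80.1 CPM in adults and 135, 132, 128, 115 and 125 CPM in adolescents. All adult libraries were below all adolescent libraries, and Cox5b was 1.58-fold lower (log2 fold change -0.66 ± 0.10, SE; edgeR adjusted p = 3.86e-05). Ndufa2, of complex I, had 23.5, 26.1, 23.02, 27.8 and 29.3 CPM in adults and 43.6, 41.8, 41.5, 40.2 and 41.4 CPM in adolescents. Ndufa1, also of complex I, had 12.4, 12.9, 12.98, 18.3 and 12.8 CPM in adults and 23.6, 27.4, 26.7, 20.2 and 24.95 CPM in adolescents. Neither overlapped between ages, and they were 1.61-fold and 1.77-fold lower (edgeR adjusted p = 1.52e-05 and 4.06e-05). Ndufa2 overlaps Tmco6 on the other strand and is uncertain for that reason. Atp5k, the e subunit of ATP synthase, is outside the list but among the 12 leading lower genes, with 15.2, 17.3, 10.5, 19.02 and 13.5 CPM in adults and 40.3, 34.8, 39.4, 31.8 and 35.7 CPM in adolescents. It was 2.41-fold lower with no overlap (log2 fold change -1.27 ± 0.16, SE; edgeR adjusted p = 1.52e-05).

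The respiratory chain genes are short, with a median of 1003 bases, and were therefore read beside other tested genes of the same length class. Those genes were not matched to the list in level or in length within the class, so the shares do not separate the list from either. Among members of up to 1491 bases, 26 of 35 (74.3%) were called lower, against 249 of 3414 (7.29%) other genes of that length outside the respiratory and ribosomal lists. Among longer members 2 of 17 (11.8%) were called lower, against 272 of 13933 (1.95%) other longer genes. With the offset 22 of the 52 were called lower. The count was 18 without adult replicate 3, 18 without adult replicate 5 and 8 with surrogate variables, which stand for hidden sources of variation estimated from the data. In mice on water 0 of the 52 were called in either direction by edgeR, with a median log2 fold change of -0.05. The median of the 52 was -0.18 between the same ages under water with morphine and -0.13 under antibiotics with morphine.

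**Figure D3:**
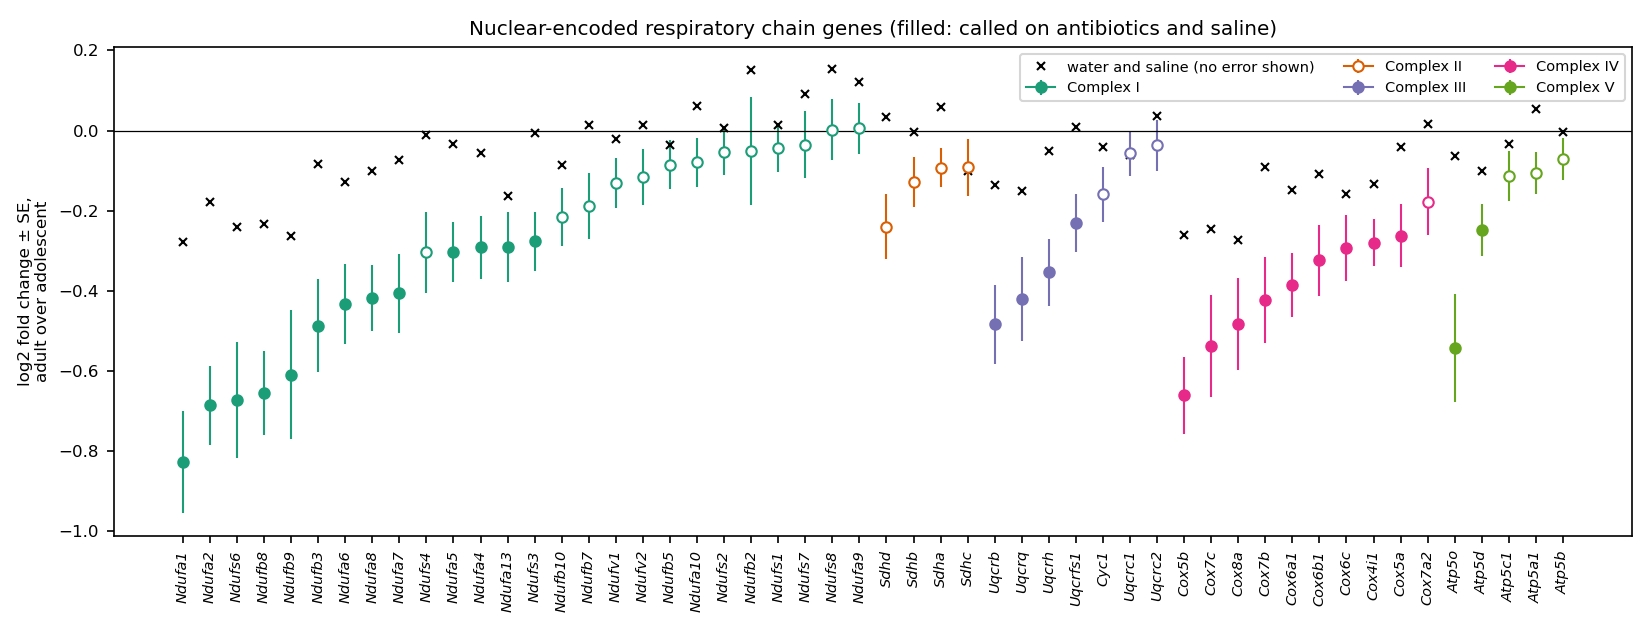
Log2 fold change (adult over adolescent) ± SE of 52 nuclear-encoded respiratory chain genes on antibiotics and saline, coloured by complex and filled where called, with the value on water and saline as a cross. On antibiotics 50 of 52 values lie below 0, and complex II has no filled point.

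The promoters of the called respiratory chain genes were searched on both strands for the core of the motif of NRF1, an activator of mitochondrial genes (GCGCA, any base, GCGC), and for a core of the motif of ETS factors (CCGGAAG). Of 28 genes called lower, 22 had a promoter in the RefSeq table, and 6 of these (27.3%) held the NRF1 core, against 3 of 18 (16.7%) members that were not called. The NRF1 core stood in 9.29% of the promoters of tested genes and 4.78% of all 27025 promoters of the same length. The ETS core stood in 5 of 22 (22.7%) called members, 4 of 18 (22.2%) others, 16.2% of tested genes and 9.12% of all promoters. A match describes letters only, and nothing here measured binding. Cox6a1 (complex IV; chr5:115348909-115349208), Ndufa8 (chr2:36049289-36049588) and Ndufs6 (chr13:73328433-73328732), the last pair of complex I, are shown as called members with an NRF1 core. All are on the minus strand, and capitals mark the NRF1 core. In Ndufa8 and Ndufs6 this core lies on the other strand, so the letters shown read GCGC, any base, TGCGC. In Cox6a1 capitals also mark the ETS core on the other strand.
Cox6a1: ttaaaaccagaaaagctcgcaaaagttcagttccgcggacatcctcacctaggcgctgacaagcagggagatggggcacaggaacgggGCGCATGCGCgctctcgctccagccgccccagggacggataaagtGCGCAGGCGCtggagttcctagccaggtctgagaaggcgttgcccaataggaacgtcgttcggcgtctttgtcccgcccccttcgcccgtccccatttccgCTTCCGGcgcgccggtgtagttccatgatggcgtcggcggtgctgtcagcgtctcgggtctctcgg
Ndufa8: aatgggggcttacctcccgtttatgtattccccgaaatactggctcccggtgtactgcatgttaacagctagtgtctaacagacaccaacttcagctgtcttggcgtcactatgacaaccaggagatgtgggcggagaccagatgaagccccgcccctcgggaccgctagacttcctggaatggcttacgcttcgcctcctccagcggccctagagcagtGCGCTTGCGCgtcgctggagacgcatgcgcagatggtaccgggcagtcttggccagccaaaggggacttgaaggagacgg
Ndufs6: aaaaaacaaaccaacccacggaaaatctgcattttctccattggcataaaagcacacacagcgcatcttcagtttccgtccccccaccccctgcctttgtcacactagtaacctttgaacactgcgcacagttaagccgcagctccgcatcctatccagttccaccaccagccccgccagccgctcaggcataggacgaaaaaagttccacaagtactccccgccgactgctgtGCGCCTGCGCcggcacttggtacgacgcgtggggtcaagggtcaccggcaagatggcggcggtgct
Cox6a1 averaged 199.7 ± 16.5 CPM in adults and 261 ± 16.4 CPM in adolescents, Ndufa8 44.5 ± 1.43 CPM in adults and 59.4 ± 4.85 CPM in adolescents, and Ndufs6 16.2 ± 4.19 CPM in adults and 25.9 ± 3.28 CPM in adolescents (SD, n = 5 each). Their log2 fold changes were -0.39, -0.42 and -0.67 (edgeR adjusted p = 0.00207, 0.00103 and 0.00336).

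None of the subunits encoded in the mitochondrial genome was called lower by edgeR. Of 13 tested, 2 were called higher in adults and 0 lower, with 7 positive and 6 negative log2 fold changes. Over all tested genes 2.79% were called higher and 3.18% lower. mt-Co1, the catalytic subunit of complex IV, had 18126, 14858, 17934, 14436 and 17720.2 CPM in adults and 12099.5, 14138, 13433, 13078 and 12642 CPM in adolescents. The libraries did not overlap, and it was 1.27-fold higher (edgeR adjusted p = 0.0218). mt-Nd5, of complex I, was 1.36-fold higher (edgeR adjusted p = 0.0142) and overlaps mt-Nd6 on the other strand. Both calls were lost with the offset (adjusted p = 0.0582 and 0.0691), and the list had 0 called members without adult replicate 3 or 5 or adolescent replicate 1, 1 without adult replicate 1 or adolescent replicate 4 or 5, and 4 without adult replicate 2. No test compared the mitochondrial with the nuclear subunits.

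Cytosolic ribosomal protein genes, whose products form the translating ribosome, also fell in part. Of 49 tested, 12 were lower in adults and 0 higher, against 3.18% called lower over all tested genes. The median log2 fold change was -0.15. In the shortest length class 12 of 41 (29.3%) were lower. Rps29 had 49.5, 44.7, 38.6, 56.1 and 42.9 CPM in adults and 98.98, 91.5, 117, 87.9 and 89.8 CPM in adolescents. It was 2.09-fold lower without overlap (log2 fold change -1.07 ± 0.17, SE; edgeR adjusted p = 0.00016). Rps28 and Rplp2 were 1.71-fold and 1.37-fold lower (edgeR adjusted p = 0.000131 and 0.00016). With the offset 10 members were lower and 2 higher, and with surrogate variables 6 were lower and 4 higher. Ribosomal protein genes have many processed copies that can share reads, and Rps28 overlaps Kank3, so single members are uncertain.

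Of 16 genes of the vacuolar proton pump, which acidifies lysosomes and synaptic vesicles, 5 were called lower in adults and 0 higher. Over all tested genes 3.18% were called lower. Atp6v0b, a membrane subunit, had 155, 158, 128, 163 and 130.1 CPM in adults and 197, 195, 178, 183 and 188 CPM in adolescents. It was lower in every adult library, by 1.28-fold (edgeR adjusted p = 0.000206), and was the only member still called with the offset, although it overlaps an antisense transcript. The number called was 2 without adolescent replicate 1 and 3 without adolescent replicate 5 or adult replicate 2, 3 or 5.

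Among 26 genes of synaptic vesicles and release, 3 fell in adults, 1 rose, and the median log2 fold change was 0.01, as over all genes. The shares called over all tested genes were 3.18% lower and 2.79% higher. Stx1a, a syntaxin of the fusion complex, had 298, 326, 284, 318 and 289 CPM in adults and 364, 391, 358, 379.9 and 404 CPM in adolescents, and was 1.25-fold lower without overlap (edgeR adjusted p = 0.000218). Syp, synaptophysin of the vesicle membrane, was 1.204-fold lower (edgeR adjusted p = 0.00213), and overlaps an antisense transcript. Both were called in every fit that left out a library. Bsn, the scaffold bassoon of the active zone and a long transcript, was 1.21-fold higher (edgeR adjusted p = 0.0243) and was not called with the offset (adjusted p = 0.245) or without adult replicate 3 or 5 or adolescent replicate 1.

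The interneuron markers that fell were 3 neuropeptide genes. Of 16 markers, Npy, Sst and Cck were lower and 0 higher, against 3.18% called lower over all tested genes. The median log2 fold change was 0.02. Npy, neuropeptide Y, had 44.8, 52.3, 36.2, 41.5 and 36.03 CPM in adults and 64.4, 69.2, 64.7, 53.2 and 59.7 CPM in adolescents. It was 1.47-fold lower without overlap (edgeR adjusted p = 0.00574), and in mice on water it was also lower (log2 fold change -0.55; adjusted p = 0.0393). With surrogate variables the log2 fold change of Npy on antibiotics was -0.24 in place of -0.56 and was not called (adjusted p = 0.0611). Sst (somatostatin) and Cck (cholecystokinin) were 1.26-fold and 1.17-fold lower (edgeR adjusted p = 0.0367 and 0.0285). The list had 1 called member without adult replicate 5 or adolescent replicate 1 or 2, and with the offset 1, Npy, the log2 fold changes being -0.23 in place of -0.34 for Sst and -0.12 in place of -0.23 for Cck (adjusted p = 0.0789 and 0.326). Pvalb, parvalbumin of fast-spiking interneurons, was not called, with 26.8, 28.98, 16.5, 13.9 and 23.8 CPM in adults and 23.3, 22.1, 22.4, 19.5 and 30.2 CPM in adolescents (edgeR adjusted p = 0.849). Among 12 excitatory neuron markers, Nrn1 (neuritin) and Nrgn (neurogranin) were each 1.22-fold lower (edgeR adjusted p = 0.00704 and 0.026), and Nrn1 overlaps Fars2 on the other strand. Nrn1 kept its call with the offset (log2 fold change -0.27; adjusted p = 0.0118). Nrgn lost it, at a log2 fold change of -0.18 in place of -0.28 (adjusted p = 0.179), and also with surrogate variables (-0.06; adjusted p = 0.644). That list had 1 called member without adult replicate 1 or 5 or adolescent replicate 2 or 5.

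Other leading genes lower in adults came from several classes. Tceal5 and Bex3, small proteins of a family encoded on the X chromosome, were 1.698-fold and 1.37-fold lower (edgeR adjusted p = 2.3e-07 and 4.06e-05). Tceal5 had 39.2, 34.4, 34.9, 50.9 and 34.2 CPM in adults and 67.7, 62.9, 69.9, 61.3 and 66.99 CPM in adolescents. Adult replicate 4 was the highest adult and still below every adolescent library. Fabp3, a fatty acid carrier, had 43.7, 47.4, 43.3, 49.1 and 42.2 CPM in adults and 60.9, 68.99, 65.3, 67.9 and 58.8 CPM in adolescents, and was 1.43-fold lower without overlap (edgeR adjusted p = 1.44e-06). Slc15a3, a lysosomal histidine and peptide transporter, was 1.67-fold lower, and Naa38, a subunit of an N-terminal acetyltransferase, 1.63-fold lower (edgeR adjusted p = 2.15e-05 and 1.52e-05). Fabp3, Slc15a3 and Naa38 each overlap a gene on the other strand and are uncertain.

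The leading genes higher in adults encoded signalling, chromatin and channel proteins. Xdh, xanthine dehydrogenase of purine breakdown, had 7.55, 6.91, 8.58, 7.69 and 7.14 CPM in adults and 3.24, 2.96, 3.503, 3.13 and 3.26 CPM in adolescents. No library of either age came near the other group, and Xdh was 2.35-fold higher (log2 fold change 1.23 ± 0.20, SE; edgeR adjusted p = 8.3e-05). Kcng3, a potassium channel subunit that modifies other channels, had 8.23, 12.8, 13.1, 10.7 and 13.7 CPM in adults and 5.24, 4.59, 4.88, 4.81 and 8.09 CPM in adolescents. Adolescent replicate 5 reached up to the lowest adult library without overlapping it, and Kcng3 was 2.12-fold higher (edgeR adjusted p = 0.000162). Igf1r, the receptor of insulin-like growth factor, had 78.5, 87.8, 106, 88.7 and 96.5 CPM in adults and 63.1, 68.5, 65.4, 61.5 and 73.8 CPM in adolescents. It was 1.38-fold higher with no overlap (edgeR adjusted p = 3.32e-05).

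Among chromatin proteins, Kmt2a, a histone methyltransferase, had 240.5, 244, 234, 246 and 233 CPM in adults and 176, 167, 172, 162 and 187 CPM in adolescents. It was 1.38-fold higher without overlap (edgeR adjusted p = 0.000106), and overlaps an antisense transcript. Rere, a nuclear co-regulator, and Jade2, part of a histone acetyltransferase complex, were 1.28-fold and 1.29-fold higher (edgeR adjusted p = 3.86e-05 and 0.00016). Sipa1l1, a regulator of Rap GTPases at the postsynapse, and Unc80, part of the sodium leak channel complex, were both 1.300-fold higher (edgeR adjusted p = 9.26e-05 and 8.07e-05). Epb41l4b, a protein of the band 4.1 family, and Klhl34, of the Kelch-like family, were 1.33-fold and 1.32-fold higher (edgeR adjusted p = 6.91e-05 and 0.00016). Of the 12 leading higher genes 8 belong to the longest length class, and with the offset the log2 fold change of Kmt2a was 0.29 in place of 0.47, that of Igf1r 0.32 in place of 0.46, that of Unc80 0.21 in place of 0.38, and that of Xdh 1.20 in place of 1.23.

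All called genes of the circadian clock, which keeps daily time in most cells, were higher in adults. Of 21 tested, 4 were called higher and 0 lower, against 2.79% called higher over all tested genes. Positive log2 fold changes were found in 18, and the median was 0.19, against 0.01 over all genes. Nr1d2, a repressor in the clock loop, had 102, 104, 104, 104 and 116 CPM in adults and 75.4, 83.4, 94.9, 81.8 and 88.3 CPM in adolescents. The groups did not overlap, and it was 1.25-fold higher (edgeR adjusted p = 0.00195). The repressors Bhlhe40 and Bhlhe41 and the activator Hlf were 1.21-fold, 1.23-fold and 1.17-fold higher (edgeR adjusted p = 0.0197, 0.0238 and 0.0366), and each overlapped between ages. With the offset Bhlhe41 and Hlf were not called, at log2 fold changes of 0.21 in place of 0.30 and 0.15 in place of 0.23 (adjusted p = 0.173 and 0.255). Bhlhe40 was not called with surrogate variables (adjusted p = 0.0621), and overlaps an antisense transcript. The list had 1 called member without adult replicate 5 or adolescent replicate 4, and 2 without adult replicate 2 or 3 or adolescent replicate 1, 2 or 3. The sources used here do not give the time of day at collection, and its part was not tested.

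Of 32 immediate early genes, induced within minutes of neuronal activity, 3 were lower in adults and 0 higher, and 26 were negative with a median of -0.09. The share called lower over all tested genes was 3.18%. Btg2, which restrains cell division, had 11.3, 7.74, 10.2, 12.8 and 9.95 CPM in adults and 20.96, 18.3, 23.6, 14.6 and 19.00 CPM in adolescents. It was 1.85-fold lower without overlap (edgeR adjusted p = 0.00574), and was not called with surrogate variables (Btg2 log2 fold change -0.72 in place of -0.89; adjusted p = 0.0732). Nptx2, a secreted organiser of excitatory synapses, was 1.29-fold lower and Gadd45g, a stress-induced gene, 1.44-fold lower (edgeR adjusted p = 0.0133 and 0.0395), and neither was called with the offset, at log2 fold changes of -0.31 in place of -0.37 and -0.40 in place of -0.52 (adjusted p = 0.126 and 0.158). Gadd45g lost its call in 8 of the 10 fits that left out a library. Bdnf, the neurotrophin gene, was not called, at 35.02 ± 4.097 CPM in adults and 39.2 ± 1.73 CPM in adolescents (SD, n = 5 each; edgeR adjusted p = 0.404).

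Glucocorticoid-responsive genes moved in both directions. Of 19, Ddit4 and Cdkn1a were lower and Nr3c2 higher in adults, against 3.18% called lower and 2.79% higher over all tested genes. Ddit4, an inhibitor of mTOR signalling, had 23.8, 21.6, 22.8, 23.2 and 29.9 CPM in adults and 36.8, 31.2, 35.6, 37.1 and 40.5 CPM in adolescents. It was 1.49-fold lower without overlap (edgeR adjusted p = 0.00297). Cdkn1a, a cell cycle inhibitor, was 1.25-fold lower (edgeR adjusted p = 0.0453) and lost its call in 9 of the 10 fits that left out a library and with the offset (log2 fold change -0.27 in place of -0.33; adjusted p = 0.145). Nr3c2, the mineralocorticoid receptor, was 1.23-fold higher (edgeR adjusted p = 0.0214) and was not called with the offset (log2 fold change 0.23 in place of 0.30; adjusted p = 0.115) or without adult replicate 2 or 5 or adolescent replicate 1 or 2. Fkbp5, a co-chaperone of the glucocorticoid receptor, was not called (log2 fold change 0.14 ± 0.11, SE; edgeR adjusted p = 0.528).

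All 23 tested genes of cholesterol synthesis and its control had negative log2 fold changes, with a median of -0.17. Of these 3 were called lower, against 3.18% of all tested genes. Mvd, a decarboxylase of the mevalonate pathway, had 14.02, 17.8, 16.1, 14.2 and 10.7 CPM in adults and 22.3, 20.6, 19.95, 20.9 and 19.9 CPM in adolescents. It was 1.42-fold lower without overlap (edgeR adjusted p = 0.0024). Pmvk, a kinase of the same pathway, and Insig1, which restrains sterol synthesis, were 1.26-fold and 1.19-fold lower (edgeR adjusted p = 0.0445 and 0.0426). Each lost its call in 8 of the 10 fits that left out a library, and Pmvk also with surrogate variables. Pmvk was not called with the offset (log2 fold change -0.23 in place of -0.34; adjusted p = 0.209). With the offset 4 members were called and the median was -0.19, and 1 was called without adult replicate 1, 2 or 5 or adolescent replicate 1 or 4.

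Of 27 heat shock and chaperone genes, the inducible chaperone Hspa1b was 1.57-fold higher in adults and the mitochondrial chaperonin Hspe1 1.29-fold lower (edgeR adjusted p = 0.0273 and 0.0259). Both lost their call without adult replicate 2 or 5 or adolescent replicate 2, Hspa1b has a near-identical copy, and Hspe1 overlaps Hspd1. Hspe1 was not called with the offset (log2 fold change -0.29 in place of -0.37; adjusted p = 0.105). Manf, a factor of the endoplasmic reticulum, was also called lower. Thus 1 member was higher and 2 were lower, against 2.79% and 3.18% of all tested genes.

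Each oligodendrocyte list had 1 called gene, lower in adults, where 3.18% of all tested genes were called lower. The precursor, premyelinating and myelin lists had median log2 fold changes of -0.09, -0.19 and -0.24. Their positive members numbered 4 of 14, 2 of 12 and 8 of 23. In mice on water and saline the medians of the same lists were -0.25, -0.23 and -0.45. There 1, 3 and 5 members were called lower in adults and 0 higher. Of 14 precursor markers, Gpr17 alone was called, and of 12 premyelinating markers, Fyn, a kinase of early myelination, was 1.15-fold lower (edgeR adjusted p = 0.00986). The premyelinating markers summed to 365 to 398 CPM in adults and 417 to 434 CPM in adolescents, which did not overlap. Of 23 mature oligodendrocyte and myelin genes, Cldn11, a tight junction protein of myelin, was called, with 34.6, 43.00, 29.6, 33.7 and 35.9 CPM in adults and 52.97, 54.9, 45.1, 45.1 and 57.5 CPM in adolescents. It was 1.45-fold lower without overlap (edgeR adjusted p = 0.0321), and lost the call in 7 of the 10 fits that left out a library and with the offset (log2 fold change -0.49 in place of -0.53; adjusted p = 0.073). The number of called myelin genes was 5 without adult replicate 2, 2 without adolescent replicate 3 and 0 without any of the other libraries except adolescent replicate 4. Over the alternative fits 0 to 4 myelin genes were called lower and 0 to 3 higher. Mbp, myelin basic protein, had 534, 604, 358, 469.9 and 494 CPM in adults and 548, 691, 471, 472 and 728 CPM in adolescents. The groups overlapped widely, and Mbp was not called (log2 fold change -0.24 ± 0.16, SE; edgeR adjusted p = 0.439).

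Receptor and channel genes are given beside the 2.79% of all tested genes that were called higher and the 3.18% called lower. Of 23 glutamate receptor genes, the kainate receptor subunit Grik2 was 1.19-fold higher in adults (edgeR adjusted p = 0.0198), while its log2 fold change with the offset was 0.04 and its call was lost without adult replicate 4 or 5 or adolescent replicate 1 or 2. Grin2b, the NMDA receptor subunit that prevails in the young brain, was not called, with 655, 807, 937, 688 and 888 CPM in adults and 495, 535, 728, 666 and 652 CPM in adolescents (edgeR adjusted p = 0.0915). The log2 fold change of Grin2b was 0.37, and 0.11 with the offset. Of 14 GABA receptor genes 0 were called by edgeR, 13 had positive log2 fold changes, and Gabra5 stood at 0.07 ± 0.10 (SE; edgeR adjusted p = 0.777). The median log2 fold change of the GABA receptor genes was 0.08, and -0.03 with the offset. Of 25 potassium channel genes 2 were called higher and 0 with the offset. Kcnc2, a subunit of fast-spiking neurons, was 1.17-fold higher (edgeR adjusted p = 0.0204), and its log2 fold change with the offset was 0.16 in place of 0.23 (adjusted p = 0.144). Kcnc2 lost its call without adult replicate 2, 3 or 5 or adolescent replicate 1 or 4.

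Of 8 opioid genes, Oprd1, the delta opioid receptor, had 34.9, 39.2, 39.6, 44.8 and 37.2 CPM in adults and 29.2, 31.6, 32.6, 29.6 and 35.1 CPM in adolescents. Adult replicate 1 lay within the adolescent range, and Oprd1 was 1.24-fold higher (edgeR adjusted p = 0.0352), a call lost in 7 of the 10 fits that left out a library. With the offset the log2 fold change of Oprd1 was as large, 0.31 against 0.31, and its adjusted p was 0.0601. Oprm1, the mu receptor through which morphine acts, had 2.94, 4.08, 3.16, 4.59 and 5.52 CPM in adults and 3.72, 4.59, 4.46, 3.03 and 2.47 CPM in adolescents. Its groups overlapped and it was not called (edgeR adjusted p = 0.78). Nfkb1, a subunit of NF-kB, was the only called member of a list with 20 tested genes. Pde10a, a phosphodiesterase abundant in striatum, was the only one of 14 striatal markers. Over all tested genes 2.79% were called higher and 3.18% lower. Nfkb1 and Pde10a were 1.25-fold and 1.22-fold higher (edgeR adjusted p = 0.0444 and 0.00976). Neither was called with the offset, where the log2 fold change was 0.31 in place of 0.32 for Nfkb1 and 0.18 in place of 0.28 for Pde10a (adjusted p = 0.0656 and 0.0937). Nfkb1 lost its call in 7 of the 10 fits that left out a library. Of 25 tested chromatin regulators 1 was called higher and 1 lower. The lower gene, Hmgn2, encodes a nucleosome-binding protein and was 1.19-fold lower (edgeR adjusted p = 0.025). Hmgn2 lost its call with the offset (log2 fold change -0.22 in place of -0.26; adjusted p = 0.0787) and without adult replicate 2 or 3 or adolescent replicate 1 or 3.

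In 15 of the 39 lists, with 234 tested members, edgeR called 0 members, DESeq2 called 2 and limma-voom 1. An unadjusted p under 0.05 was reached by 26 of the 234 in edgeR, and by 3612 of all 17880 genes. Beside the cell type lists named above these were lists of mural cells, cortical layers, perineuronal nets, collagens, sodium channels, dopamine and serotonin receptors, cold-inducible proteins, interferon-stimulated genes, and MHC class I and complement. The 24 matrix genes of the perineuronal net had a median log2 fold change of 0.03, and the 21 interferon-stimulated genes one of 0.19 with 15 positive.

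**Figure D4:**
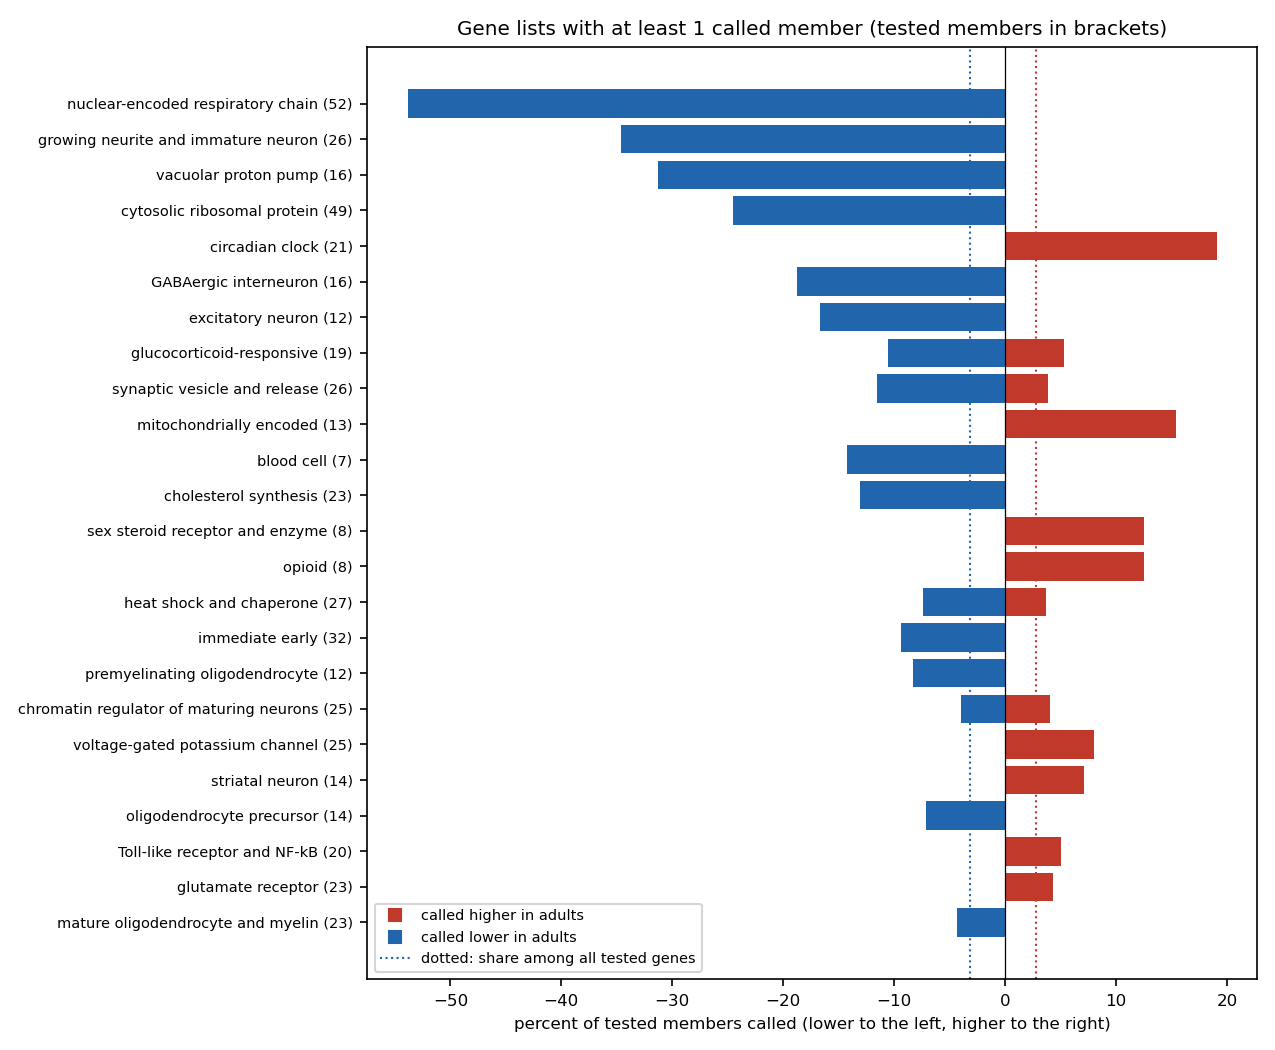
Percent of the tested members of each gene list called lower (left) and higher (right) in adults on antibiotics and saline, for the lists with at least 1 called member. Dotted lines mark the shares over all tested genes, 3.18% lower and 2.79% higher; the respiratory chain list reaches farthest, with 28 of 52 members lower.

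Between the same ages on water and saline edgeR called 46 of 17880 genes (0.257%), 14 higher (0.0783%) and 32 lower (0.179%) in adults. Of these 46 genes 23 (50%) were also called on antibiotics, where they made up 2.15% of the 1068, and no gene was called in opposite directions. Of the 1068 genes 844 (79.0%) had the same sign on water, against 57.4% of all genes, and their median log2 fold change in the direction seen on antibiotics was 0.33 there and 0.09 on water. Over all 17880 genes the log2 fold changes of both comparisons had a Pearson r of 0.14 and a Spearman rho of 0.19. This correlation is across genes, which are not independent replicates.

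Under morphine the age difference gave 166 called genes on water (0.928%), 71 higher (0.397%) and 95 lower (0.531%), and 186 on antibiotics (1.04%), 74 higher (0.414%) and 112 lower (0.626%), comparisons added after the data had been seen. Of the 166 genes, 115 (69.3%) were also called on antibiotics and saline, or 10.8% of the 1068, and of the 186 genes, 73 (39.2%), or 6.84%. Marcksl1 had log2 fold changes of -1.04 under antibiotics with saline, -0.67 under water with saline, -1.05 under water with morphine and -0.93 under antibiotics with morphine. For Ass1 these were 0.64, 0.75, 0.47 and 0.52, and for Cox5b -0.66, -0.26, -0.46 and -0.33, in the same order.

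**Figure D5:**
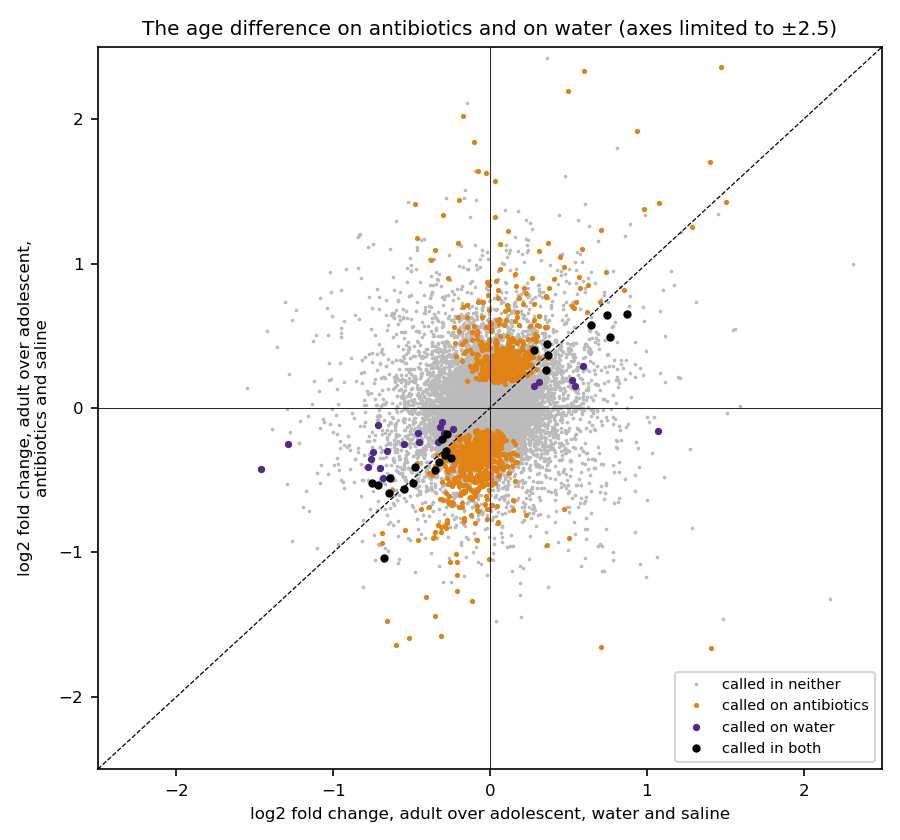
Log2 fold change (adult over adolescent) of each tested gene on antibiotics and saline (vertical) against that on water and saline (horizontal), with called genes marked, both axes limited to ±2.5 and equality as a dashed line. Of the genes called on antibiotics, 844 of 1068 have the same sign on water, and 23 genes are called in both.

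A gene called on antibiotics and not on water is not thereby shown to differ between them. The difference between both age differences was tested for every gene, and edgeR called 4 genes (0.0224%), 4 higher and 0 lower, with 1801 at an unadjusted p under 0.05. DESeq2 called 40 and limma-voom 6. Csmd3, a large membrane protein with CUB and sushi domains, had 33.4, 42.6, 46.8, 39.1 and 38.2 CPM in adults and 24.6, 24.9, 28.02, 31.03 and 26.8 CPM in adolescents on antibiotics, without overlap. On water it averaged 33.1 ± 4.89 CPM in adults and 36.7 ± 3.35 CPM in adolescents (SD, n = 5 each). The age difference was 0.56 on antibiotics and -0.15 on water on the log2 scale, and their difference was 0.71 ± 0.14 (SE; edgeR adjusted p = 0.0383).

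Fcho2, which shapes membranes in endocytosis, and Phc3, a Polycomb protein, differed by 0.53 ± 0.11 and 0.46 ± 0.09 (SE; edgeR adjusted p = 0.0393 for each). For Csmd3 the call was lost in 5 of 20 fits that left out a library, for Fcho2 in 10 and for Phc3 in 9, and with the offset none of these 3 was called (adjusted p = 0.131, 0.145 and 0.145) and 1 gene of all was (0.00559%), AC167245.1. Marcksl1 differed by -0.36 ± 0.11 between both age differences and was not called (edgeR adjusted p = 0.204). No member of any of the 39 lists was called for this difference by edgeR.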

How the data were processed

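RNA of 40 libraries, 5 for each of 8 groups, was selected for polyadenylated transcripts and sequenced. The deposited file is a single matrix of unnormalized read counts over 56980 genes. Per the submitters' processing notes STAR 2.7.10a, DESeq2 and the mouse build mm10 were used, with no role given for DESeq2. The sources used here do not state the annotation or whether counting used strand, so overlapping and antisense genes cannot be told apart. Identifiers were matched without version to GENCODE M21 (52073, or 91.4%), which gave symbols, transcript length and GC content. No replicates were treated as duplicates: chi-square per gene was 2.24 to 15.3 over the 40 pairs within the 4 saline groups.

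Counts were fitted in R 4.3.3 with edgeR 4.0.16 (filterByExpr with a minimum count of 10 and total of 15, TMM, robust quasi-likelihood F test, two-sided) over all 40 libraries, so that the groups shared 1 estimate of spread. Benjamini-Hochberg adjustment covered all 17880 genes tested, which held 99.7% to 99.8% of each library's counts. A fold change's SE was taken as its log2 size over the root of F. CPM use TMM library sizes. A count of 3, the floor of detection, equals 0.294 to 0.34 CPM in the 10 libraries and covers counting error only. The code was tested on simulated data.

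Members, lists and tests were chosen with earlier results of these data known. Named genes are the 12 higher and 12 lower called genes of smallest p (mean at least 1 CPM, established symbol) and, as a rule, at most 3 called genes from any list. Tmsb10, Nrep, Sox4 and Cd24a of the growing neurite list and Hlf of the clock list go beyond these 3. Mbp, Dcx, Pvalb, Gabra5, Grin2b, Oprm1, Bdnf and Fkbp5 are named whatever their p. Of the rest, Clec2l, Selenow, Hsf4, Gm44101, Manf, Basp1, Fscn1, Marcks, Dclk1, Cox6a1, Ndufa8, Ndufs6 and AC167245.1 were picked after their values were seen. Alternatives were RLE size factors, no filter, DESeq2 1.42.0, a filter of 1 CPM in 5 libraries, voom weights in limma 3.58.1, a fit of only the groups compared, the replicate number as a block, 3 surrogate variables from sva 3.50.0, omission of each library and, added after seeing the data, a length and GC offset from splines with 4 degrees of freedom over the 97.6% of genes with a length. Some members of the lists are not reported here by name.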

Additional observations from a re-analysis of the deposited data

Results flagged for a closer look

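In 12 of 174 sets of 5 libraries of a named gene (6.9%) 1 library lay far from the other 4 by Dixon's criterion, which chance meets in about 5% of sets. Among adults, replicate 4 stood apart for Ndufa1 at 18.3 CPM, for Kcnc2 at 123 CPM and for Cdkn1a at 32.4 CPM. Adult replicate 5 stood apart for Nr1d2 at 116 CPM, for Ddit4 at 29.9 CPM, for Pmvk at 17.5 CPM and for Fkbp5 at 34.3 CPM, and adult replicate 2 for Bhlhe40 at 169.6 CPM. Among adolescents, replicate 5 stood apart for Adap1 at 287 CPM, for Kcng3 at 8.09 CPM and for Nrep at 78.7 CPM, and replicate 4 for Tubb3 at 374 CPM.

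The age difference on antibiotics and that on water differed by test in 4 genes. The log2 difference between them was 0.71 for Csmd3, 0.53 for Fcho2 and 0.46 for Phc3. It was 4.68 for AC167245.1, a value that depends on the prior count, since this gene had 0.321 to 1.18 CPM in adults and 0 to 0.212 CPM in adolescents on antibiotics, where all adolescent libraries lay under the floor of 3 counts. Its call was lost in 7 of 20 fits that left out a library (edgeR adjusted p 0.00563 to 0.107), and kept with the length and GC offset (adjusted p = 0.0423).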

How the results depend on the processing

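The number of genes called between ages on antibiotics, 1068, was 548 with the length and GC offset, of which 448 were among the 1068, and 560 to 1115 when single libraries were left out. With surrogate variables it was 816, of which 440 were among the 1068. The 46 genes called on water were 139 without a filter on low counts, 104 by DESeq2, 19 in a fit of only the groups compared, 98 with surrogate variables and 22 to 95 when single libraries were left out. The 4 genes called for the difference between both age differences were 49 without a filter, 40 by DESeq2, 1 in a fit of only the groups compared, 9 with the replicate block, 60 with surrogate variables, 1 with the offset and 0 to 11 when single libraries were left out, with 0 without adult replicate 3 or adolescent replicate 1 or 2 on antibiotics or without adult replicate 3 or adolescent replicate 2 on water. The cause was not tested. Of 79 called genes considered for naming, 26 lost their call with the offset and 20 with surrogate variables, and none changed sign in any alternative or omission run. Among those not called, Mbp, Dcx, Pvalb, Gabra5 and Oprm1 had either sign, depending on the alternative.

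The replicate numbers did not pair the samples: deviations of same-numbered libraries correlated at -0.03 to 0.11 on antibiotics, over 0.1 in 1 of 5 pairs, and no library correlated best with its own number. With the replicate block 1163 genes were called on antibiotics and 60 on water. At these depths genes with means near the floor of 3 counts carry wide errors, and small age differences may not have been detectable.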
